A study of Mus musculus with 12 samples.

Results

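MHC class II molecules and the machinery that loads them with peptide were followed across 12 RNA-seq libraries through 10 genes, which were H2-Aa, H2-Ab1, H2-Eb1, H2-Ea-ps, H2-DMa, H2-DMb1, H2-DMb2, H2-Oa, Cd74 and Ciita. These members were taken from the table by gene symbol, and they were selected on their measured FPKM levels over the 4 groups, with results of these libraries already known. Their differences between groups are therefore a description: no p-value of a member is printed, and a member named as called passed the threshold applied to all genes, which is no independent evidence of its change. All 10 members were found among the 45777 genes of the table, and all 10 passed the filter on low counts (reads in 3 or more libraries) that left 23585 genes for testing.

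Every library came from splenic CD4+ T cells of wild type mice, labelled Balb/c and 7 weeks old, that were cultured for 3 days with anti-CD3 at 0.5 ug/mL, an antibody that activates T cells through their receptor complex. There were 4 groups of 3 libraries: the antibody by itself (anti-CD3 alone), the antibody plus the probiotic bacterium *L. acidophilus*, the antibody plus FK506, a drug also named tacrolimus that inhibits calcineurin, and the antibody plus both agents (the combination). Doses of the bacterium and the drug are not given for these cultures, and no label says that libraries of 1 group came from separate mice, so the spread between libraries may be technical. The study's methods name B6 mice for the T cells while the labels name Balb/c, and this bears on class II genes because they differ between mouse strains.

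MHC class II molecules are paired alpha and beta chains that present peptides from engulfed proteins to CD4+ T cells. The invariant chain (Cd74) guides new chains to the endosome, where cathepsins trim it, H2-DM exchanges the remaining fragment for a peptide and H2-DO restrains H2-DM. Transcription of the whole set depends on Ciita, which has no DNA contact of its own and acts through factors bound to the X and Y boxes of the promoters; B cells, dendritic cells and macrophages carry the set, whereas mouse T cells are known for making little of it.

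Of the 10 members, 8 lie together on chromosome 17 within 252267 bp (chr17:34092379-34344645, GRCm38.p6), and Ciita lies at chr16:10480014-10531064. RefSeq promoters of this build, the same build that the submitters' processing notes name, were found for 6 members, and those of 5 are shown because they hold the letters of the boxes through which Ciita acts. Each stretch is the 150 bases before a transcript start, written 5′ to 3′ on the gene's strand. Capitals mark ACNGATG (the X box core) and GATTGG or its reverse complement CCAATC (the Y box, which is also the CCAAT box of many other promoters). The stretches are chr17:34305717-34305866 on the plus strand for H2-Eb1, chr17:34153041-34153190 on the plus strand for H2-DMb1, chr17:34145099-34145248 on the plus strand for H2-DMb2, chr17:34287824-34287973 on the minus strand for H2-Aa, and chr17:34092229-34092378 on the plus strand for H2-Oa.
H2-Eb1: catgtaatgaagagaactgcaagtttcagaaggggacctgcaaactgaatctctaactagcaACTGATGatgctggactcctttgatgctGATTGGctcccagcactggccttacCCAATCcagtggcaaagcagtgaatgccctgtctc
H2-DMb1: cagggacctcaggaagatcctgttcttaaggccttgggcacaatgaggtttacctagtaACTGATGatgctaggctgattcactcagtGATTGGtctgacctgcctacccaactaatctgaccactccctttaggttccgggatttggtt
H2-DMb2: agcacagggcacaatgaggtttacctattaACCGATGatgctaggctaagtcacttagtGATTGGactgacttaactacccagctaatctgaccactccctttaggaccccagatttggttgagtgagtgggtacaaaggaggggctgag
H2-Aa: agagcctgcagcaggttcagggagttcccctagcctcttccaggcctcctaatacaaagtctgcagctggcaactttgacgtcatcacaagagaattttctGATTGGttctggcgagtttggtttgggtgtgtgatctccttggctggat
H2-Oa: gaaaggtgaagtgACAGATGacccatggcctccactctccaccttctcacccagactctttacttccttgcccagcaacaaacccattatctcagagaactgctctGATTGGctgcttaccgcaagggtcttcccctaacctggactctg

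Both strands of the 250 bases before each start were searched. These 5 promoters were picked for holding the letters, from 7 promoters of 6 members, so the shares over all promoters are given for scale only. The Y box letters were found in the 5 on the forward strand, between 44 and 91 bases before the start, and in 14.6% of all 32851 promoters of the table. The X box letters were found on the forward strand in H2-Eb1, H2-DMb1, H2-DMb2 and H2-Oa, and on the reverse strand 232 bases before the start, outside the printed stretch, in H2-Aa, against 8.31% of all promoters. In H2-DMb1 and H2-DMb2 the X box letters began 29 bases before the Y box letters, and in H2-Eb1 28 bases before. This spacing, looked for after the sequences were seen, occurred in 6 of the 32851 promoters (0.0183%), which belong to these 3 members, H2-Eb2, BC051142 and Scaper. In H2-Oa the letters stood 93 bases apart. For H2-DMa, the promoter of the transcript start at 34122832 held neither set of letters, and that of the start at 34125518 held GATTGG 199 bases before the start. A match of letters is a description of the sequence and no evidence of binding. No promoter of H2-Ab1, H2-Ea-ps, Cd74 or Ciita was in the table.

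Class II RNA was low with anti-CD3 alone and with *L. acidophilus*, high with FK506 and intermediate with the combination. The summed FPKM (fragments normalised to transcript length and library size, as deposited) of the 10 members was 241, 169 and 124 in the 3 libraries with anti-CD3 alone and 215, 141 and 107 with *L. acidophilus*. With FK506 it was 2355, 1990 and 1299, and with the combination 1171, 1130 and 1125. The 3 FK506 libraries stood above the 3 combination libraries, and both groups stood above the other 6 libraries without overlap. The members took between 0.0171% and 0.346% of a library's counts.

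**Figure D1:**
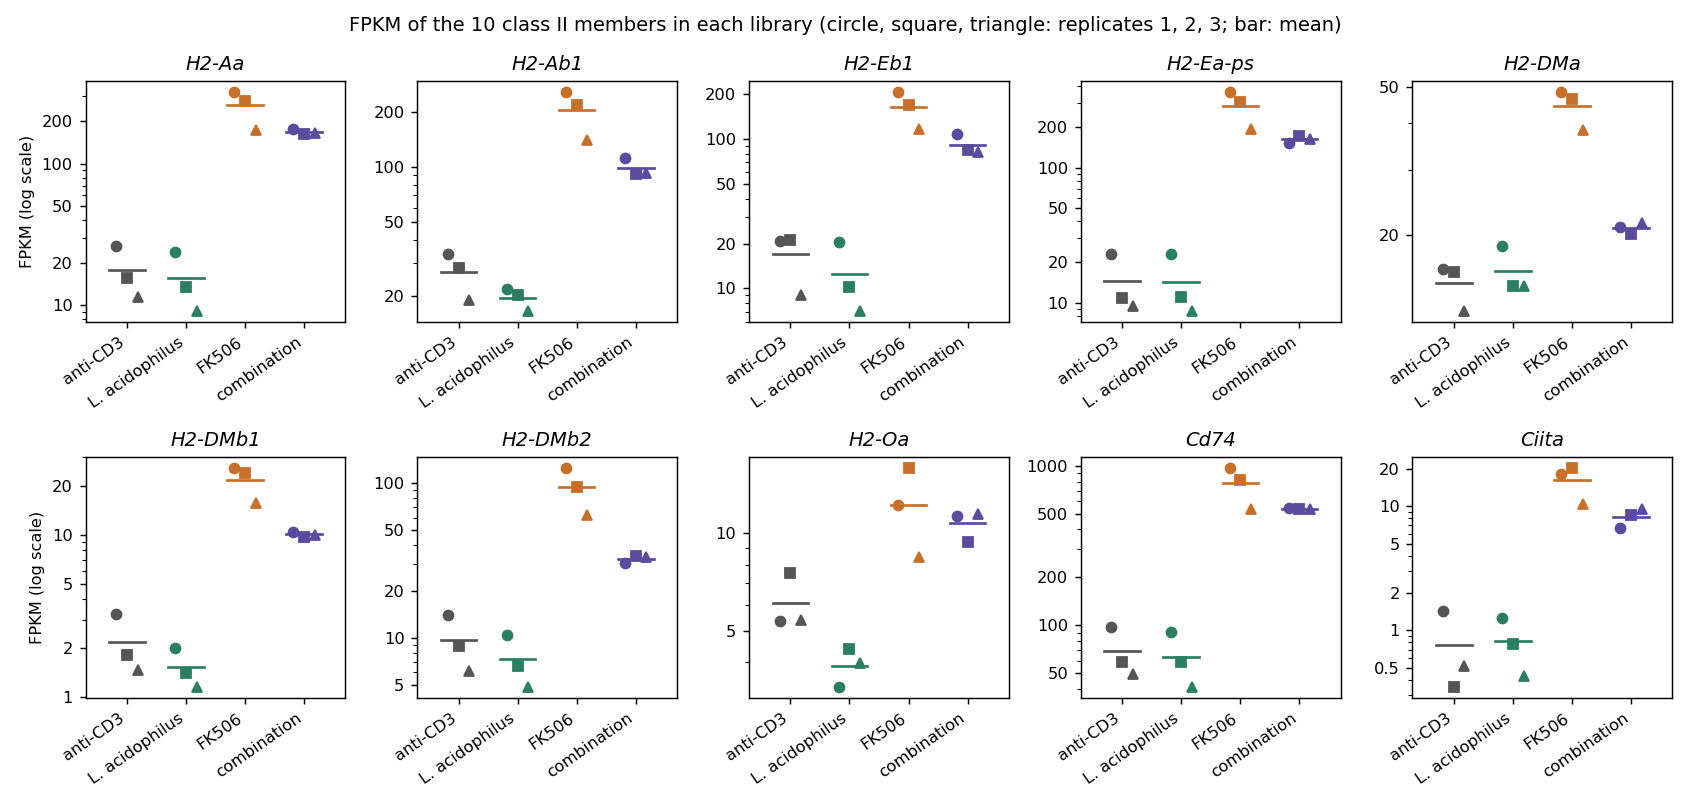
FPKM of each member (log axis) in the 12 libraries by group, with replicates 1, 2 and 3 as circle, square and triangle and the group mean as a bar. Each member except H2-Oa and H2-DMa sits about an order of magnitude higher with FK506 than with anti-CD3 alone, and the 3 combination libraries lie closer together than the FK506 libraries.

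The classical chains form the peptide-binding molecules of the cell surface. H2-Aa, the alpha chain of I-A, had FPKM values of 26.2, 15.6 and 11.5 with anti-CD3 alone, 24.0, 13.6 and 9.10 with *L. acidophilus*, 322, 280 and 175 with FK506 and 176, 164 and 166 with the combination. The FK506 and anti-CD3 groups did not overlap, whereas the combination and FK506 touched, since the lowest FK506 library (175) lay just under the highest combination library (176). On the count scale H2-Aa was 13.3-fold higher with FK506 than with anti-CD3 alone (log2 fold change 3.73, SE 0.40) and 8.16-fold higher with the combination (3.03, SE 0.38). Its partner H2-Ab1, the I-A beta chain, had 33.5, 28.1 and 18.95 FPKM with anti-CD3 alone, 21.6, 20.2 and 16.5 with *L. acidophilus*, 256, 218 and 140 with FK506 and 111, 91.9 and 92.8 with the combination. H2-Ab1 was 6.95-fold higher with FK506 than with anti-CD3 alone (log2 fold change 2.80, SE 0.26), and the combination stood 2.19-fold below FK506 (-1.13, SE 0.24) with no overlap of the libraries.

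H2-Eb1, the I-E beta chain, had 20.6, 21.2 and 9.09 FPKM with anti-CD3 alone, 20.3, 10.2 and 7.04 with *L. acidophilus*, 207, 168 and 118 with FK506 and 109, 84.4 and 81.8 with the combination. All FK506 libraries were above the combination, which was above the rest, and FK506 stood 8.80-fold above anti-CD3 alone (log2 fold change 3.14, SE 0.42). H2-Ea-ps, which is listed as a pseudogene of the I-E alpha chain, had 23.0, 10.8 and 9.53 FPKM with anti-CD3 alone, 23.0, 11.0 and 8.70 with *L. acidophilus*, 362, 305 and 192 with FK506 and 151, 170 and 163 with the combination. H2-Ea-ps was 18.02-fold higher with FK506 than with anti-CD3 alone (log2 fold change 4.17, SE 0.44), and its libraries did not overlap between these groups. RefSeq places it at chr17:34341952-34344645 as a transcribed pseudogene of the C57BL/6J reference, where, as background, a deletion of the start of the gene abolishes its transcript, while Balb/c mice carry an intact copy. RNA was assigned to it in all 12 libraries, with 589 to 30798 counts, and its FPKM was between 0.510 and 2.01 times that of H2-Eb1. How mapping reads of another strain to the C57BL/6J reference affected the class II levels was not tested.

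H2-DM, the peptide exchange molecule, pairs H2-DMa with 1 of 2 beta chains. H2-DMa had 16.2, 15.97 and 12.5 FPKM with anti-CD3 alone, 18.7, 14.6 and 14.7 with *L. acidophilus*, 48.5, 46.5 and 38.3 with FK506 and 21.0, 20.1 and 21.6 with the combination. The combination libraries lay near the level without FK506: the combination was 1.25-fold above anti-CD3 alone (log2 fold change 0.32, SE 0.13), FK506 was 2.60-fold above it (1.38, SE 0.13), and the combination was 2.09-fold below FK506 (-1.06, SE 0.13). Without TMM scaling factors this last difference was -0.97 and was no longer called. H2-DMb2 had 14.1, 8.88 and 6.10 FPKM with anti-CD3 alone, 10.4, 6.62 and 4.83 with *L. acidophilus*, 126, 94.1 and 62.5 with FK506 and 30.7, 34.0 and 33.1 with the combination. Among the members it had the largest difference between the combination and FK506, which was 3.07-fold lower (-1.62, SE 0.34), with the libraries apart. H2-DMb1 lay lower, with 3.25, 1.83 and 1.48 FPKM with anti-CD3 alone, 2.02, 1.40 and 1.16 for *L. acidophilus*, 25.8, 23.8 and 15.7 for FK506 and 10.4, 9.70 and 9.97 for the combination. Its FK506 libraries stood apart from all others, 9.03-fold above anti-CD3 alone (3.18, SE 0.31).

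Limits of the annotation apply to these genes. H2-DMa overlaps Brd2, a chromatin reader gene, over 3122 bp, and the counting is not stated to use strand. Brd2 itself had 68.5 to 95.9 FPKM over the 12 libraries and differed by 0.11 (log2, SE 0.08) between FK506 and anti-CD3 alone (adjusted p = 0.361, edgeR). The transcripts of H2-DMb1 and H2-DMb2 were 94.2% identical over 1246 aligned bases, with an identical run of 221 bases, so that the authors' counting could have split reads between the copies and their separate levels are uncertain.

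H2-Oa, the alpha chain of the H2-DM inhibitor H2-DO, moved least with FK506. Its FPKM values were 5.35, 7.55 and 5.41 with anti-CD3 alone, 3.35, 4.38 and 3.97 with *L. acidophilus*, 12.3, 15.98 and 8.46 with FK506 and 11.4, 9.43 and 11.4 with the combination. All FK506 libraries were above all anti-CD3 libraries, by a fitted 1.84-fold (log2 fold change 0.88, SE 0.23), which is under the 2-fold limit, and the combination overlapped FK506. The limit was passed without replicate 2 of anti-CD3 alone (1.08), without replicate 3 of FK506 (1.11) and without TMM factors (1.00). The *L. acidophilus* libraries of H2-Oa all lay below those of anti-CD3 alone (-0.73, SE 0.23, not called). With 3 libraries against 3, such a separation can arise without a difference. The lncRNA BC051537 spans H2-Oa and was at 0.120 FPKM or lower in every library.

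Cd74, the invariant chain, was the most abundant member in every group. It lies at chr18:60803849-60812652 and had 97.6, 58.8 and 49.1 FPKM with anti-CD3 alone, 90.5, 58.5 and 41.0 with *L. acidophilus*, 977, 818 and 539 with FK506 and 544, 538 and 536 with the combination. Of the FK506 libraries, 2 lay well above the combination and the remaining one was level with it. Cd74 was 10.4-fold higher with FK506 (log2 fold change 3.38, SE 0.34) and 6.85-fold higher with the combination (2.78, SE 0.33) than with anti-CD3 alone.

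Ciita, the transactivator of the set, had the lowest mean FPKM of the members in every group but FK506, where H2-Oa was lower. Its FPKM values were 1.44, 0.350 and 0.512 with anti-CD3 alone, 1.26, 0.773 and 0.432 with *L. acidophilus*, 18.2, 20.4 and 10.4 with FK506 and 6.65, 8.49 and 9.57 with the combination. The FK506 libraries did not overlap the anti-CD3 libraries, which rested on 179 to 712 counts, and they stood just above the combination. Ciita overlaps Dexi over 858 bp and the lncRNA LOC115488669 over 15932 bp, and without strand their reads cannot be told apart. Dexi had 10.4 to 15.0 FPKM with anti-CD3 alone and 9.35 to 10.5 with FK506 (-0.39, SE 0.20, adjusted p = 0.204, edgeR). Ciita was 17.3-fold higher with FK506 (log2 fold change 4.11, SE 0.47) and 9.60-fold higher with the combination (3.26, SE 0.46) than with anti-CD3 alone.

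The comparison of FK506 with anti-CD3 alone asks what calcineurin inhibition changed in these activated cultures. A gene was called when its adjusted p in edgeR was under 0.05 and its change at least 2-fold. On this rule 9 of 10 members were called higher and 0 lower, beside 6.44% of all genes called higher and 4.12% lower. Their median log2 fold change was 3.16, against -0.0017 over all genes tested. Since the members were chosen with this contrast in view, nothing is read from the count.

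Addition of *L. acidophilus* without FK506 left the members near the anti-CD3 level. By edgeR 0 of 10 members were called in either direction, where 0.157% of all genes were called higher and 0.0297% lower. DESeq2 and limma also called 0, and 2 of the 10 had an unadjusted p under 0.05 in edgeR, as did 3489 of all 23585 genes. The log2 fold changes ran from -0.73 (H2-Oa) to 0.06 (H2-DMa) with a median of -0.39. The libraries overlapped for 9 of the 10 members. The share of all genes with overlap was not computed. For 3 libraries against 3 the smallest p of an exact permutation test is 0.1, so nothing is read from this count. Without replicate 1 of anti-CD3 alone, the sign turned for H2-Aa (from -0.28 to 0.13), H2-Ea-ps (to 0.42), Cd74 (to 0.16) and Ciita (to 0.53). The fitted changes above take no account of pairing. Between libraries of the same number, 7 of the 10 members had lower FPKM with *L. acidophilus* in all 3 pairs and 0 had higher. The labels name no pairs, and only the correlation rule given below counts these libraries as paired. The share of all genes with the same sign in all pairs was not computed. Members also varied together within groups, so nothing is read from this count. H2-Aa was among the 7, with log2 ratios of -0.13, -0.20 and -0.34, and so was Cd74, with -0.11, -0.0076 and -0.26, whereas H2-Ea-ps, H2-DMa and Ciita differed in sign between pairs.

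With both agents class II stayed above the level without FK506. Against anti-CD3 alone, 8 of 10 members were called higher, all but H2-DMa and H2-Oa, beside 13.8% of all genes called higher and 10.8% lower, and the median log2 fold change was 2.09. Against *L. acidophilus*, 9 of 10 were called higher, all but H2-DMa, beside 9.93% higher and 6.64% lower, with a median of 2.67. Both comparisons use the same combination libraries.

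Against FK506, the question was whether adding the bacterium changed the FK506 state. All 10 members had lower fitted values in the combination, with a median log2 fold change of -0.92. H2-Ab1, H2-DMa, H2-DMb1 and H2-DMb2 were called lower, beside 3.84% of all genes called higher and 3.60% lower. H2-Aa (-0.70, SE 0.36), H2-Eb1 (-0.92, SE 0.39), H2-Ea-ps (-0.91, SE 0.39), Cd74 (-0.60, SE 0.31) and Ciita (-0.85, SE 0.42) were not called, and H2-Oa (-0.27, SE 0.23) was not either. The call of H2-Ab1 was lost without replicate 1 of FK506 (-0.95), and that of H2-DMb1 without replicate 2 (-1.17) or replicate 3 (-1.18) of the combination. With replicates 2 and 3 alone, chosen after seeing the data, the same 4 members were past 2-fold, at -1.07 for H2-Ab1, -1.01 for H2-DMa, -1.12 for H2-DMb1 and -1.34 for H2-DMb2.

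**Figure D2:**
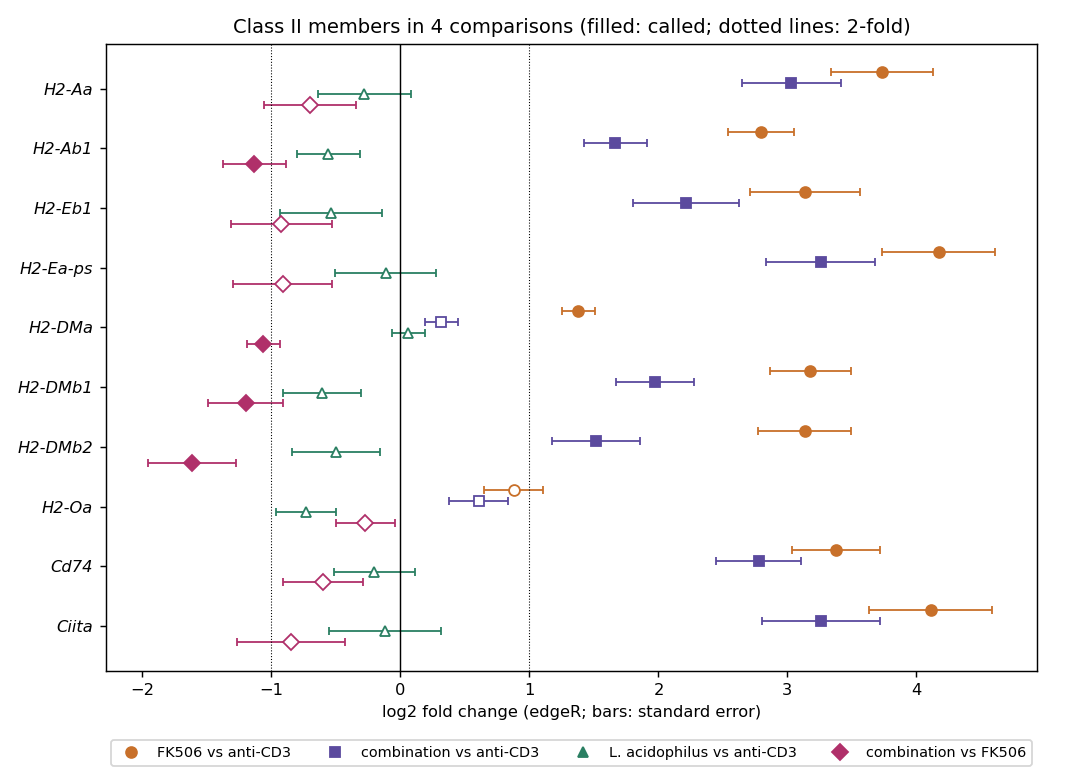
Log2 fold change of each member (x axis) in 4 comparisons, with the standard error as a bar, filled symbols for called members and dotted lines at 2-fold. The FK506 and combination symbols lie right of those of *L. acidophilus* for every member, and those of the combination against FK506 all lie left of 0.

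The change with the bacterium was also compared between cultures with and without FK506. The difference of its log2 fold changes in the 2 settings is named the departure from additivity, and over all genes it was called at an adjusted p under 0.05 in edgeR. As the members were chosen on these same groups, their departures are a description. H2-DMa departed by -1.12 (log2, SE 0.18), the single member past the threshold, beside 1.35% of all genes called higher and 3.00% lower. H2-DMb2 had a departure of the same size with a wider error (-1.12, SE 0.48), and the median over the members was -0.58.

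Several pairs of members did not keep fixed proportions to each other. The ratio of H2-Aa to H2-Ab1 FPKM was 0.783, 0.554 and 0.606 with anti-CD3 alone, 1.26, 1.28 and 1.25 with FK506 and 1.58, 1.78 and 1.79 with the combination. These 3 groups did not overlap, and *L. acidophilus* (0.553 to 1.11) overlapped anti-CD3 alone. H2-DMb2 was 4.12 to 4.84 times H2-DMb1 with anti-CD3 alone, 3.95 to 4.88 times with FK506 and 2.95 to 3.50 times with the combination. The H2-DMa to H2-DMb2 ratio was 1.15 to 3.03 in the 6 libraries without FK506 and 0.385 to 0.685 in the 6 with it, again without overlap. H2-Oa to H2-DMa was 0.468 to 0.540 with the combination, and anti-CD3 alone (0.330 to 0.473) overlapped both this range and that of FK506 (0.221 to 0.343), while *L. acidophilus* had 0.179 to 0.300. Cd74 was 3.73 to 4.50 times H2-Aa in the 6 libraries without FK506 and 2.93 to 3.29 times in the 6 with it, without overlap. The Ciita to H2-Aa ratio differed less. It was 0.0225 to 0.0548 with anti-CD3 alone and 0.0475 to 0.0569 with *L. acidophilus*. With FK506 it was 0.0565 to 0.0730, which overlapped *L. acidophilus* and the combination (0.0378 to 0.0575) but not anti-CD3 alone.

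**Figure D3:**
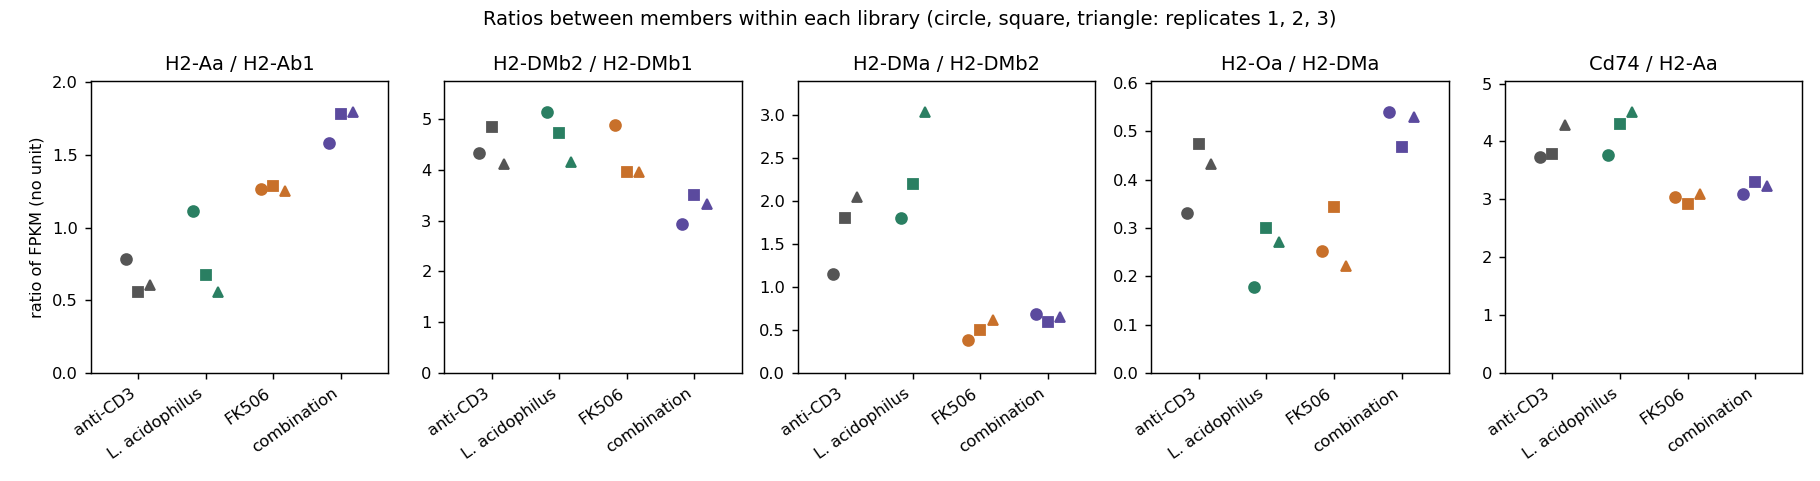
Ratio of FPKM between pairs of members within each library, by group, with replicates 1, 2 and 3 as circle, square and triangle. H2-Aa over H2-Ab1 separates anti-CD3 alone, FK506 and the combination, and H2-DMa over H2-DMb2 separates the libraries with FK506 from those without.

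Within groups, the members also varied together. Averaged over members, replicate 1 deviated from its group mean by 0.52 (log2) with anti-CD3 alone, 0.50 with *L. acidophilus* and 0.28 with FK506, while replicate 3 deviated by -0.50, -0.43 and -0.43. The combination libraries deviated by at most 0.05. Over the 12 libraries, the deviations of each member correlated with the mean deviation of the other 9 at r = 0.78 to 0.99, except for H2-Oa (r = 0.11). The points share libraries and their depth, and replicate 1 was the deepest in each group.

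Markers of other cells were measured beside these genes because the libraries are bulk cultures, in which fewer cells of a type and less RNA per cell cannot be told apart. The labelled cell type was met by its markers, with 131 to 256 FPKM of Cd4 in all libraries. Of the CD8 markers, Cd8b1 was at 2.102 to 6.846 FPKM and Cd8a at 0.0993 to 2.18. Cd8a was called higher with FK506 than with anti-CD3 alone (2.38, SE 0.56, adjusted p = 0.0123, edgeR) and lower in the combination than with FK506 (-1.98, SE 0.55, adjusted p = 0.0269, edgeR), and both calls were lost without replicate 1 of FK506 (1.69, adjusted p = 0.0556, and -1.29, adjusted p = 0.12, edgeR). The second was also lost without replicate 2 (-1.79, adjusted p = 0.0974, edgeR) or replicate 3 (-1.71, adjusted p = 0.0981, edgeR) of the combination. The part of CD8+ cells in the class II values was not tested. B cell markers were present in each library, and 17 of 18 were called higher with FK506 than with anti-CD3 alone, with 10 of 18 called lower in the combination than with FK506. The summed FPKM of the 18 markers was 112 to 193 with anti-CD3 alone, 89.0 to 184 for *L. acidophilus*, 888 to 1824 for FK506 and 813 to 952 for the combination. Ighm, the immunoglobulin heavy chain, made up 58.5% to 77.0% of this sum. Without Ciita, the summed members were 1.10 to 1.63 times the sum of 18 markers in every library. Over the 17 markers without Ighm, a choice made after seeing the data, the ratio was 2.68 to 3.13 with anti-CD3 alone, 3.24 to 4.74 for *L. acidophilus*, 4.03 to 4.48 for FK506 and 5.08 to 6.003 for the combination. Within groups, the deviations of 9 members correlated with the mean B cell deviation at r = 0.76 to 0.98 and those of H2-Oa at 0.04.

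Members differed in their proportion to Cd79a, a B cell receptor subunit. The ratio of H2-Aa to Cd79a was 1.30 to 1.64 with anti-CD3 alone, 1.60 to 2.99 for *L. acidophilus*, 2.55 to 2.75 for FK506 and 3.25 to 3.91 with the combination. That of Ciita overlapped between FK506 (0.144 to 0.200) and the combination (0.148 to 0.188), and that of H2-DMb2 was lower with the combination (0.650 to 0.684) than with FK506 (0.924 to 0.996). Ighm was at 619 to 732 FPKM with the combination and 601 to 1257 with FK506. The study's methods describe a purification of splenic CD4+ cells on magnetic beads against CD4, a step meant to remove other cells, and do not repeat it for the sequenced cultures. The part of B cell RNA in the class II values was not tested.

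Macrophage and monocyte markers summed to 2.36 to 3.82 FPKM with anti-CD3 alone, 3.68 to 7.40 for *L. acidophilus*, 5.65 to 18.7 for FK506 and 48.5 to 77.1 for the combination. Of the 12 markers, 9 were called higher with FK506 and 11 with the combination than with anti-CD3 alone, and 7 were called higher in the combination than with FK506, the opposite direction to the class II members. Csf1r and C1qa were at 0 with anti-CD3 alone. Dendritic cell markers summed to 32.7 to 64.2 FPKM with anti-CD3 alone and 6.67 to 17.7 in the other groups. In the anti-CD3 libraries most of this was Batf3 (30.5 to 61.7), which activated T cells also make. Of the 8 tested dendritic cell markers, 2 were called higher and 1 lower with FK506 than with anti-CD3 alone, and 3 higher and 1 lower with the combination. Flt3, a receptor of dendritic cell precursors, had mean FPKM values of 0.174 with anti-CD3 alone, 0.887 with FK506 and 4.55 with the combination. Itgax (CD11c) had 0.346, 1.48 and 0.707, and Zbtb46, a dendritic cell transcription factor, had 1.78, 1.89 and 5.15 in the same order. Of the defining dendritic cell markers, Clec9a and Cd209a were at 0 in all libraries but 1 of the combination, and Siglech was at 4 counts or fewer throughout. Xcr1, another of them, had 4, 0 and 0 counts with anti-CD3 alone, 23, 15 and 0 with FK506 and 28, 20 and 15 with the combination. It was not called with the combination against anti-CD3 alone (adjusted p = 0.0534, edgeR) and was called under 7 alternatives (adjusted p = 0.0166 to 0.044, edgeR). The part of these cells in the class II values was not tested either.

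**Figure D4:**
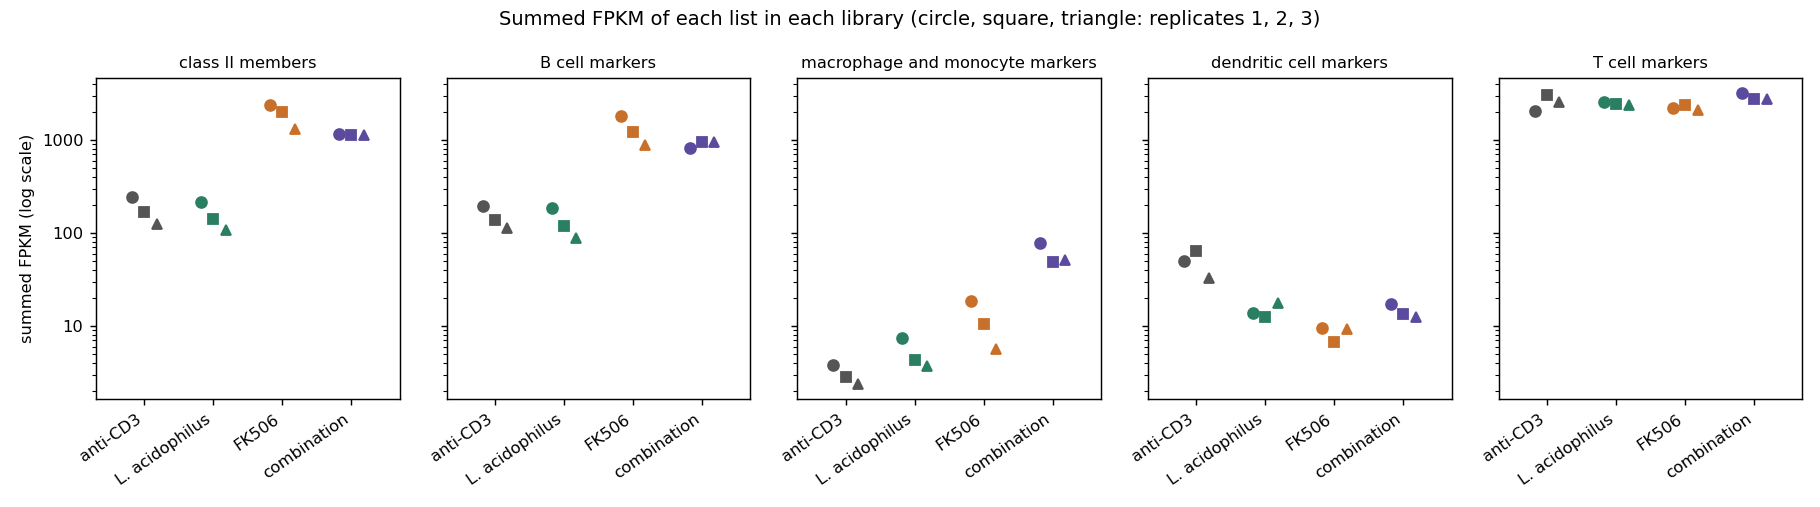
Summed FPKM (log axis) of the class II members and of 4 marker lists in each library, by group, with replicates 1, 2 and 3 as circle, square and triangle. The class II and B cell sums are both highest in replicate 1 of every group but the combination, where replicate 1 has the lowest B cell sum, while the macrophage sum is highest with the combination and the T cell sum stays between 2071 and 3196.

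Genes whose profile was most like that of the members were sought among 12211 other genes with a mean FPKM of at least 1, by Pearson's r with the mean standardized member profile over 12 libraries. The 10 closest were Cd79b (r = 0.996), Blnk, Trib1, Cd79a, Gm32220, Spib, Lat2, Ms4a1, Ighj3 and Ighv5-4 (r = 0.982). Cd79b, for example, had mean FPKM values of 8.24 with anti-CD3 alone, 6.25 with *L. acidophilus*, 77.2 with FK506 and 31.6 with the combination. Within groups, the deviations of these 10 genes correlated with those of the members at r = 0.72 to 0.98. The 12 points share their libraries and depth.

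Other genes of the class II pathway moved only in part. Of 19 such genes, 6 were called higher with FK506 than with anti-CD3 alone and 0 lower, with a median log2 fold change of 0.29. H2-Ob, the beta chain of H2-DO, rose 6.13-fold (log2 fold change 2.62, SE 0.28, adjusted p = 0.000189, edgeR), with 2.11 to 3.13 FPKM in the anti-CD3 libraries and 9.29 to 23.05 in the FK506 libraries. Ctss, the cathepsin that trims the invariant chain in antigen-presenting cells, rose 3.62-fold (1.86, SE 0.19, adjusted p = 0.000163, edgeR). Its FPKM was 96.2 to 124 with the combination against 40.7 to 65.9 with FK506, a difference that was not called. The other 4 called genes were H2-Eb2, Ifi30 (a lysosomal thiol reductase), Lgmn (legumain, an endosomal protease) and March1 (a ligase that removes class II from the surface), which are named after their values were seen. H2-Eb2, whose promoter was among the 6 with the boxes 28 or 29 bases apart, went from 0.0450 to 0.170 FPKM to between 1.54 and 3.46.

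Factors that bind the boxes differed less than Ciita. Rfx5, an X box factor, was at 7.51 ± 1.28 FPKM with anti-CD3 alone and 11.1 ± 0.943 with FK506 (SD, n = 3 each), a log2 fold change of 0.47 (SE 0.13, adjusted p = 0.0248, edgeR) that was under 2-fold. The other RFX genes, the NF-Y genes and Creb1 also lay within 2-fold, from -0.40 (Rfxap, SE 0.13, adjusted p = 0.0566, edgeR) upwards. Lag3, a class II receptor of activated T cells, differed by 0.10 (SE 0.14, adjusted p = 0.678, edgeR). Between the combination and FK506, Ctsl, a cathepsin, was called higher (1.93, SE 0.27, adjusted p = 0.000856, edgeR) and Ifi30 lower (-1.46, SE 0.20, adjusted p = 0.000816, edgeR), both named after their values were seen.

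**Figure D5:**
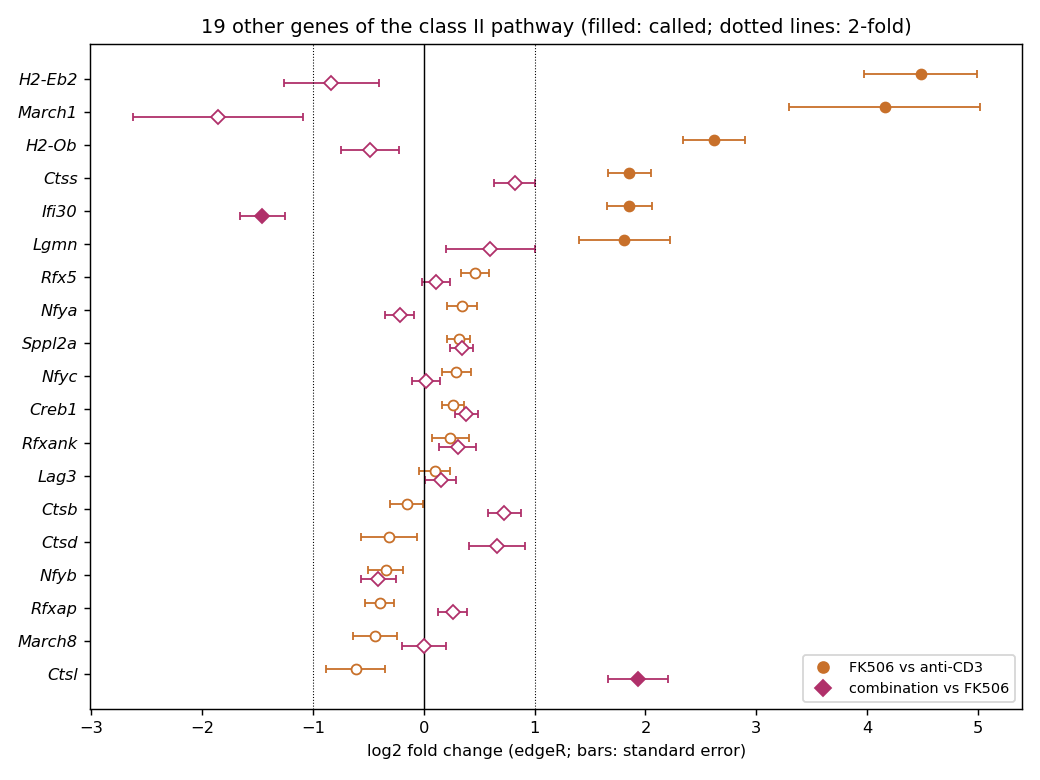
Log2 fold change of 19 other class II pathway genes (x axis, bars for the standard error) for FK506 against anti-CD3 alone and for the combination against FK506, with filled symbols for called genes and dotted lines at 2-fold. H2-Eb2, March1, H2-Ob, Ctss, Ifi30 and Lgmn lie beyond 2-fold with FK506, and the RFX and NF-Y genes lie within it.

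Interferon-gamma drives Ciita in many cells, and its route was followed through 10 genes. With FK506 against anti-CD3 alone, 1 was called higher (Irf8, 1.42, SE 0.23, adjusted p = 0.00167, edgeR, named after its value was seen) and 1 lower (Jak2, -1.36, SE 0.20, adjusted p = 0.00113, edgeR). Ifngr1, a receptor chain named after its value was seen, was not called (1.20, SE 0.40, adjusted p = 0.0553, edgeR), but passed under 8 alternatives, among them DESeq2 (1.21, adjusted p = 0.00862), the replicate block (1.07, adjusted p = 0.00956, edgeR) and without replicate 3 of FK506 (1.56, adjusted p = 0.0149, edgeR). Irf1 rose by less than the 2-fold limit (0.77, SE 0.11, adjusted p = 0.00102, edgeR). Ifng itself had 3.83, 2.50 and 3.45 FPKM with anti-CD3 alone, 26.0, 5.91 and 6.42 with *L. acidophilus*, 4.13, 4.02 and 7.34 with FK506 and 3.34, 11.1 and 12.99 with the combination. The highest Ifng value, 26.0, belonged to a single *L. acidophilus* library, and Ifng was not called with FK506 (0.56, SE 0.59, adjusted p = 0.554, edgeR).

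The class I pathway, which presents peptides to CD8+ T cells, served as a neighbour for comparison. By edgeR 0 of 16 class I genes were called with FK506 against anti-CD3 alone, and DESeq2 and limma also called 0. Of the 16, 6 had an unadjusted p under 0.05 in edgeR, as did 7774 of all 23585 genes. Their median log2 fold change was -0.01. H2-K1, a class I heavy chain, differed by 0.14 (SE 0.14, adjusted p = 0.56, edgeR) and B2m, its light chain, by 0.24 (SE 0.15, adjusted p = 0.293, edgeR). Nlrc5, the class I counterpart of Ciita, had 18.6 ± 4.07 FPKM with anti-CD3 alone, 36.4 ± 4.92 with FK506 and 53.0 ± 3.64 with the combination (SD, n = 3 each). Its change was under 2-fold with FK506 (0.85, SE 0.16, adjusted p = 0.0039, edgeR) and called with the combination (1.31, SE 0.16, adjusted p = 7.21e-05, edgeR). Canx, a chaperone of class I chains, was lower in the combination than with FK506 by less than 2-fold (-0.68, SE 0.11, adjusted p = 0.00173, edgeR).

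Costimulatory genes of antigen-presenting cells differed among themselves. Cd40 rose with FK506 (1.58, SE 0.28, adjusted p = 0.00287, edgeR), the 1 of 6 genes called there. Like the class II members, Cd40 had a lower value in the combination than with FK506, which was not called (-0.78, SE 0.28, adjusted p = 0.0678, edgeR), with mean FPKM values of 4.43 with anti-CD3 alone, 3.45 with *L. acidophilus*, 14.4 with FK506 and 8.92 with the combination. Cd80 was called higher in the combination than with FK506 (1.14, SE 0.15, adjusted p = 0.000664, edgeR), and so was Cd86 (1.69, SE 0.43, adjusted p = 0.0179, edgeR). The call of Cd86 was lost without replicate 3 of FK506 (1.44, adjusted p = 0.0792, edgeR) or replicate 1 of the combination (1.44, adjusted p = 0.0571, edgeR). Cd86 had 1.42 to 3.30 FPKM with anti-CD3 alone, 2.55 to 5.21 with FK506 and 11.9 to 17.8 with the combination.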

How the data were processed

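Sample labels gave the group of each of the 12 mouse CD4+ T cell libraries. The authors deposited estimated counts per gene as whole numbers, which are called estimated because the submitters' processing notes name StringTie 2.1.3b and a count of 2 (9579 values) was more frequent than a count of 1 (7801 values). FPKM, also deposited by the authors, are scaled to transcript length and library size; the quantile normalization that the study's methods name was not visible in them. The same notes name bcl2fastq 2.20.0, Trimmomatic, HISAT2 2.1.0 and the mouse build mm10 (GRCm38). The 12 columns of TPM were not used. Mapping or counting of the libraries was not repeated, so multi-mapped reads of near-identical copies stayed as the authors assigned them.

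Total counts per library ranged from 45416397 to 64658165 (median 51608408.5). No 2 replicates of a group agreed within counting error (chi-square over its degrees of freedom 4.61 to 204.5), so none was merged. Replicates 2 and 3 were much closer to each other with the combination (4.61) and with *L. acidophilus* (9.57) than any other pair (47.7 to 204.5). edgeR 4.0.16 (R 4.3.3) was fitted to the counts of 23585 genes (reads in 3 or more libraries), with TMM factors, 1 mean per group and the quasi-likelihood test. A call needed an adjusted p (Benjamini-Hochberg, all genes tested) under 0.05 and a change of at least 2-fold; the interaction had no fold limit. For 3 libraries against 3, the smallest p of an exact permutation test is 0.1. The standard error was obtained as the size of the log2 change over the root of F. Levels are FPKM, and intervals for them are the spread between libraries only. The fit was also run on simulated counts with the same spread for every gene and group. The real libraries differ in spread, so that run is no test of the calls made here.

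Members, gene lists and tests were chosen with earlier results of these data known. The genes named are the members, H2-Ob, Rfx5, Nlrc5, H2-K1, B2m, Ifng, Irf1, Ctss, Lag3 and Cd86, the 2 genes of each pathway list with the lowest adjusted p for FK506 against anti-CD3 alone or for the combination against FK506, and the 10 genes most like the members; others are marked in the text or are markers of other cells. Some genes of the lists are not reported here by name.

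Labels number the libraries 1 to 3 and name no shared animal or batch. Same-numbered libraries deviated together (every pair's r over 0.1, across genes) for *L. acidophilus* against anti-CD3 alone (r 0.14 to 0.439) and the combination against *L. acidophilus* (r 0.109 to 0.2), which by the rule used counts as pairing there, and not for the other comparisons. Alternatives were no TMM factors, DESeq2 1.42.0, other filters on low counts, only the compared libraries, the replicate number as a block, no fold limit, limma 3.58.1 on log2(FPKM + 1) and log2(FPKM + 0.1), each library left out, and, added after seeing the data, replicates 2 and 3 only. Promoters are from RefSeq GRCm38.p6 and transcripts of the H2-DMb copies from GENCODE, aligned with Biopython 1.88. Plots used matplotlib 3.10.9 and Python 3.11.15.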

Additional observations from a re-analysis of the deposited data

Results flagged for a closer look

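The change with *L. acidophilus* differed between cultures with and without FK506 for some genes, by the interaction term (edgeR, adjusted over all 23585 genes), whose size is the departure from additivity. Among the members, H2-DMa had a departure of -1.12 (log2), with a change of 0.06 without FK506 and -1.06 with it. This is a description, since the members were chosen on these same groups. Among the pathway genes, Ifi30 departed by -1.11 (adjusted p = 0.0484, edgeR), Ctsl by 1.92 (adjusted p = 0.0184, edgeR), Cd80 by 0.87 (adjusted p = 0.0434, edgeR) and Canx by -0.71 (adjusted p = 0.0273, edgeR). The calls of Ifi30, Cd80 and Canx were lost when most single libraries were left out, with adjusted p of 0.0513 to 0.121 in edgeR, and that of Ctsl was lost without replicate 3 of *L. acidophilus* (1.91, adjusted p = 0.0507, edgeR). Among the markers of cell types, Cd4 departed by 0.67 (adjusted p = 0.0219, edgeR), the dendritic cell marker Zbtb46 by 1.58 (adjusted p = 0.023, edgeR) and the macrophage marker Mertk by 2.53 (adjusted p = 0.0304, edgeR). The call of Mertk was also lost when most single libraries were left out, and those of Cd4 and Zbtb46 without some of them. The adjusted p of these 3 genes was then 0.0511 to 0.0762 in edgeR.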

How the results depend on the processing

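The number of members called stayed within 1.5 times its reported value in each of 130 recalculations. It was 9 or 10 for FK506 against anti-CD3 alone, 8 or 9 for the combination against anti-CD3 alone, 3 or 4 for the combination against FK506, 9 for the combination against *L. acidophilus*, 0 for *L. acidophilus* against anti-CD3 alone and 1 for the departure. The counts of 9 for the combination against anti-CD3 alone and 1 of those of 10 came from dropping the fold limit, which leaves the fold changes as they are. Of the members' log2 fold changes under the other settings, 1239 recalculations kept side and direction, 4 lost their call (H2-DMa and H2-Ab1 under 2-fold, H2-DMb1 in both cases on the adjusted p), 3 gained one and 4 uncalled values changed sign, as given with each gene. With the replicate block 9, 4, 9, 8 and 1 members were called for FK506 against anti-CD3 alone, the combination against FK506, against *L. acidophilus* and against anti-CD3 alone, and for the departure, and the block changed no member's call.

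Counts over all genes depended more on the settings. For *L. acidophilus* against anti-CD3 alone, 44 genes were called, and 439 by DESeq2, 84 and 83 with other filters, 69 with the replicate block, 11 by limma on log2(FPKM + 1), 3 with replicates 2 and 3 only, and by edgeR 0 with only the compared libraries, where 2616 had an unadjusted p under 0.05 (1 to 169 with a library left out). For the departure, 1025 genes were called, and 2379 by DESeq2, 1578 with the block and 474 with replicates 2 and 3 only (332 to 1464 with a library left out). Limma called 1675 on log2(FPKM + 1) and 1413 on log2(FPKM + 0.1). For FK506 against anti-CD3 alone, and the combination against anti-CD3 alone, FK506 and *L. acidophilus* in that order, edgeR called 2491, 5797, 1754 and 3910 genes, limma on log2(FPKM + 1) called 967, 2318, 647 and 1618, and without the fold limit edgeR called 4483, 10209, 4508 and 7930. Without replicate 3 of FK506 the combination differed from FK506 in 979 genes. Without TMM factors the median of all genes shifted to 0.23 for the combination against anti-CD3 alone, 0.13 against FK506 and 0.13 against *L. acidophilus*.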
